A study of Mus musculus with 4 samples.

Results

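*Tcf3*, *Tcf4*, *Tcf12*, *Id1*, *Id2*, *Id3*, *Id4*, *Zeb1* and *Zeb2* were taken by name from a table of 56883 genes measured in SST+ interneurons with and without a deletion of *Dnmt1*. All 9 were in the table and all 9 had a mean normalized count of at least 10, as did 14323 genes in all, which were the genes tested. RNA was sequenced from tdTomato-positive cells that had been sorted by flow cytometry from the basal telencephalon of mouse embryos at stage E14.5, the time at which many interneurons of the medial ganglionic eminence migrate. The control group was *Sst-Cre/tdTomato* (2 libraries) and the knockout (KO) group was *Sst-Cre/tdTomato/Dnmt1 loxP2* (2 libraries), so both groups carried the *Sst-Cre* driver and the tdTomato reporter and differed in the floxed *Dnmt1* alleles. The mice had a C57BL/6J background, and each library held cells pooled from several embryos, per the methods. Cre was driven by *Sst*, which is switched on in postmitotic interneurons, so the deletion was aimed at cells past their last division. DNMT1 is the methyltransferase that copies DNA methylation to the new strand at replication.

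E proteins (*Tcf3*, *Tcf4* and *Tcf12*) are basic helix-loop-helix (bHLH) transcription factors that are made in most tissues. They bind the E-box, CANNTG, as dimers, often with a tissue-restricted bHLH factor such as a proneural protein. Id proteins (*Id1* to *Id4*) have the dimerization domain but not the DNA-binding domain, so an E protein held by an Id protein is kept off DNA, and BMP signaling through Smad proteins is a well-known inducer of their genes. ZEB1 and ZEB2 are zinc finger and homeodomain repressors that bind E-boxes of the form CACCTG or its complement CAGGTG, recruit CtBP and other corepressors and, in the case of ZEB2, bind activated Smad proteins. In the ventral telencephalon *Zeb2* is needed for interneurons to reach the cortex, and mutations of *TCF4* in humans cause Pitt-Hopkins syndrome.

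*Tcf3*, *Id2* and *Id4* had lower counts in KO cells, and *Id3* did not pass the test. Each of these genes has 1 start site in the RefSeq table of promoter windows, and the 250 bases before that start are shown because they are the stretches in which an E-box at the promoter itself would lie. They are written 5′ to 3′ on the strand of the gene, with each E-box, CANNTG, in capitals, from RefSeq build GRCm38.p6 (chr10:80433636-80433885, minus strand, for *Tcf3*, chr12:25096093-25096342, minus strand, for *Id2*, chr4:136143572-136143821, plus strand, for *Id3* and chr13:48260866-48261115, plus strand, for *Id4*).
Tcf3: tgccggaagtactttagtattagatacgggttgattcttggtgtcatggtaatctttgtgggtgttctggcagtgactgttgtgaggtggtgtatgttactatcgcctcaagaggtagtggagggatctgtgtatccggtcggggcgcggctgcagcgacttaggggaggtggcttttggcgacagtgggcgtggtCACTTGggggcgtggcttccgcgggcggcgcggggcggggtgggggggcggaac
Id2: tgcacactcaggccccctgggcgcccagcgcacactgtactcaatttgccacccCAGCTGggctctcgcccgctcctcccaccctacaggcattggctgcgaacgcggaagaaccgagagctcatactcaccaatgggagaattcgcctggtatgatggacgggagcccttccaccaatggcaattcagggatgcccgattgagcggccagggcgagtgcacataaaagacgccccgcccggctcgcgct
Id3: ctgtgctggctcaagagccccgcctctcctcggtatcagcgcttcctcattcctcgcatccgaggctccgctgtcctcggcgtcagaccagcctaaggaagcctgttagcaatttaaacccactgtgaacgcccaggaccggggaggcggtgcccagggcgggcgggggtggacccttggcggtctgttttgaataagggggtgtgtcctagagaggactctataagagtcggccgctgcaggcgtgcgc
Id4: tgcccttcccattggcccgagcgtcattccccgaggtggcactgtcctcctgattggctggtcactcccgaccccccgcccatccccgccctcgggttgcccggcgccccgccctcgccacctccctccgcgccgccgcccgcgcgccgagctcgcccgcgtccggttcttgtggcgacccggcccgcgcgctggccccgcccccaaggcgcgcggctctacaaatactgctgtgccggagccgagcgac
The *Tcf3* and *Id2* windows held 1 E-box each, CACTTG and CAGCTG, and the *Id3* and *Id4* windows held none, while 66.2% of the 32851 windows of this length in the table held at least 1. None of the 4 windows held CACCTG or CAGGTG, the forms bound by ZEB proteins, which 17.2% of all windows did (both strands were read, and these words are also counted among the E-boxes). CG dinucleotides, the sites of DNA methylation, numbered 18 in the *Tcf3*, *Id2* and *Id3* windows and 35 in the *Id4* window, against a median of 6 over all windows. At least 18 were found in 21.7% of all windows and at least 35 in 2.97%. *Tcf12*, which was not called, has 3 windows, not shown, with 39, 38 and 0 CG dinucleotides. *Zeb2*, which rose, has 4 windows, with 6 to 14. For *Tcf4*, *Id1* and *Zeb1*, which were also called, the RefSeq table held no window. GGCGCC, a core of the BMP-responsive Smad element known from *Id* genes, occurred once each in the *Id2* and *Id4* windows and in 9.59% of all windows. The genome build of these windows is older than that of the counts, GRCm39, and the matches describe letters, not binding.

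The 4 libraries held 6970247 to 8376711 reads assigned to genes. *Dnmt1* itself was not called and so gave no check of the labels. Its count, which covers the whole transcript and not only the floxed exons, was 2238 and 2341 in the controls and 2164 and 2210 in KO cells (log2 fold change -0.07, SE 0.05, limma, adjusted p = 0.461). In sorted cells of the E14.5 cortex the paper reported fewer *Dnmt1* transcripts in KO cells. It also reported a weaker DNMT1 protein signal in tdTomato-positive cells at E14.5. *Sst*, the gene that drives Cre, was at 5580 and 5963 in the controls and at 8303 and 7825 in KO cells, and rose by 0.48 on the log2 scale (limma, adjusted p = 4.87e-06). Over all genes tested, limma on log2(normalized count + 1) called 17.3% at a Benjamini-Hochberg adjusted p below 0.05, of which 8.3% of genes tested were higher and 8.99% lower in KO cells. Each of the 2 libraries per genotype is a pool, so p-values rest on spread between pools and not between single embryos. For each gene, limma estimates this spread in part from other genes of like level. Since the counts are relative, fewer cells of a type in the sort and less RNA per cell cannot be told apart.

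Of the 9 genes, 2 rose in KO cells (*Tcf4* and *Zeb2*), 5 fell (*Tcf3*, *Id1*, *Id2*, *Id4* and *Zeb1*) and 2 were not called (*Tcf12* and *Id3*), so that both the E protein and the Zeb family held 1 gene that rose and 1 that fell. In all 9 the control and KO libraries did not overlap, which was also so for 57.4% of the genes tested. The median log2 fold change of the 9 genes was -0.54, against -0.0033 over all genes tested. The calls for *Tcf3*, *Tcf4*, *Id4*, *Zeb1* and *Zeb2* held with each of the 4 libraries left out in turn, which 6.97% of the genes tested did. They also held in DESeq2's Wald test on the recovered reads, which called 9.2% of genes tested (4.43% higher and 4.77% lower) and, of the 9, the 2 that rose and 3 that fell. The calls for *Id1* and *Id2* did not hold in either check. edgeR's quasi-likelihood test, which called 17.6% of genes (8.56% higher and 9.09% lower), called the same 7 genes as limma. All 7 calls rested on limma's variance trend, which shares information between genes of like level: without it their adjusted p lay between 0.0683 and 0.141 (limma), and no gene of the table was called.

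**Figure D1:**
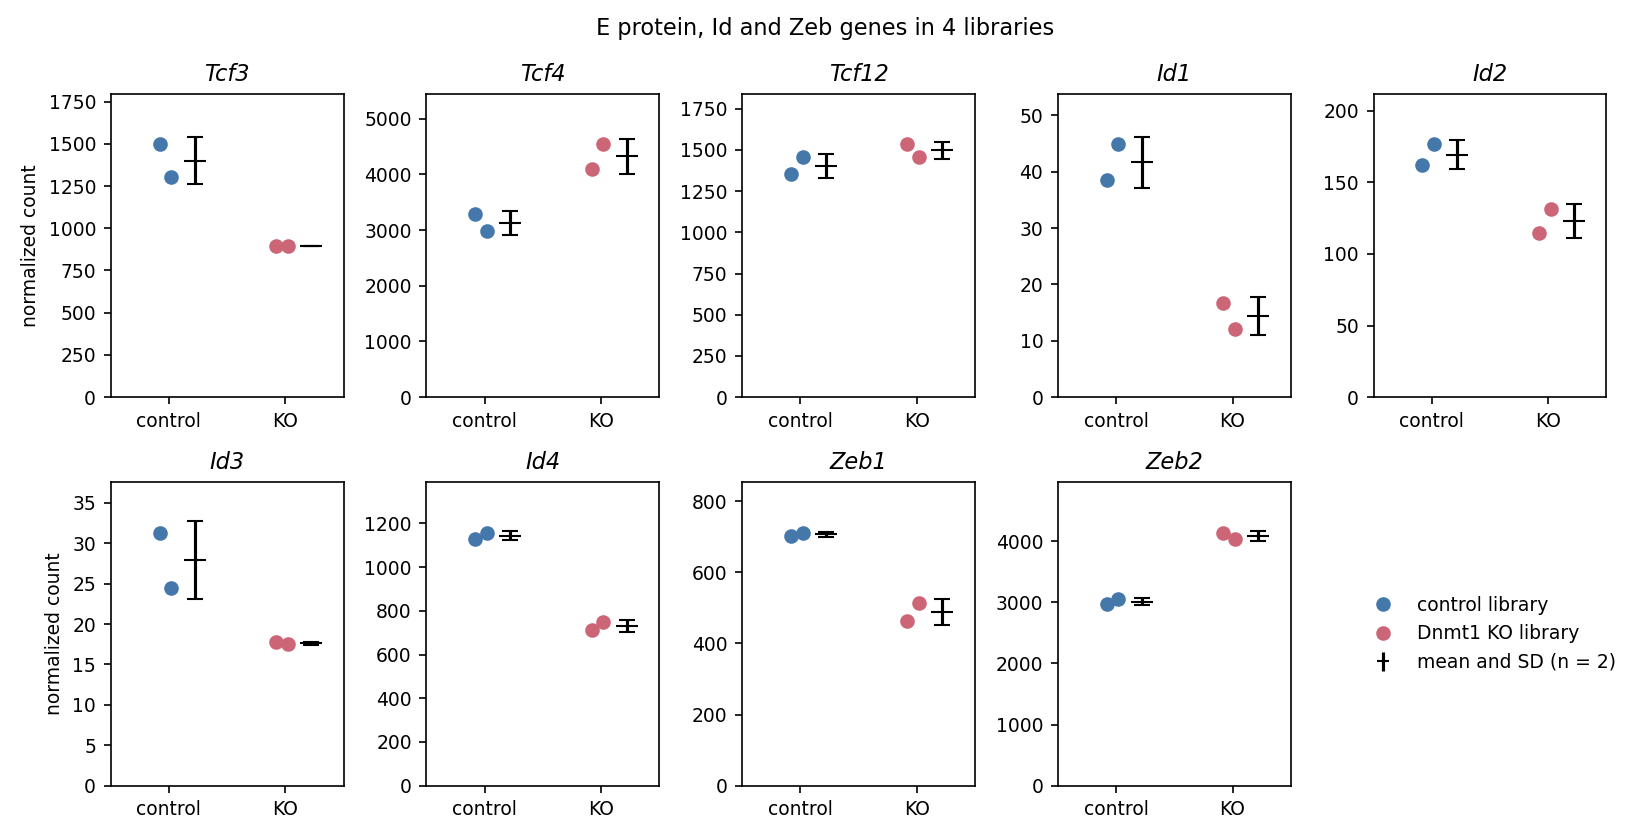
Normalized counts (linear axes from 0, a separate scale for each gene) of the 9 genes in the 2 control and 2 Dnmt1 KO libraries, with the mean and SD of each group (n = 2). *Tcf4* and *Zeb2* sit higher in both KO libraries, *Tcf3*, *Id1*, *Id2*, *Id4* and *Zeb1* sit lower, and the KO libraries of *Tcf12* start just above the higher control.

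Among the E protein genes, *Tcf3* fell, *Tcf4* rose and *Tcf12* was not called. *Tcf3* encodes the E12 and E47 isoforms and lies on the minus strand of chromosome 10 (chr10:80244046-80269594, GRCm39). Its normalized count was 1498 and 1304 in the controls and 894 and 895 in KO cells. Both KO libraries lay well below the lower control, and the controls were farther apart than the KO libraries. From a mean of 1401 ± 137 it fell to 894 ± 0.839 (SD, n = 2 each), which is -0.64 on the log2 scale (SE 0.07, limma, adjusted p = 2.47e-05). Leaving out 1 library at a time moved it between -0.74 and -0.54.

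*Tcf4* encodes the E2-2 protein and spans chr18:69476427-69822150 on the plus strand. Its normalized count was 3284 and 2982 in the controls and 4102 and 4544 in KO cells. Both KO libraries were above both controls, and the gap between the groups was wider than the gap within either. The mean rose from 3133 ± 214 to 4323 ± 312 (SD, n = 2 each), or by 0.46 on the log2 scale (SE 0.06, limma, adjusted p = 6.85e-05), with 0.39 to 0.54 when 1 library was left out.

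*Tcf12*, which encodes HEB, spans chr9:71749970-72019177 on the minus strand. It had 1351 and 1454 in the controls and 1535 and 1459 in KO cells. The lower KO library and the higher control were nearly level, so the groups were apart by less than the libraries of 1 genotype. Its log2 fold change was 0.09 (SE 0.06, limma, adjusted p = 0.356) and stayed between 0.04 and 0.15 with 1 library left out.

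All 4 Id genes had lower counts in both KO libraries than in both controls, and 3 of them were called. *Id4*, known for its expression in neural progenitors, spans chr13:48414558-48419502 on the plus strand and had 1129 and 1158 in the controls against 710 and 751 in KO cells. The libraries of each genotype lay close together, far from those of the other. The mean fell from 1144 ± 20.1 to 730 ± 28.6 (SD, n = 2 each), or by 0.65 on the log2 scale (SE 0.07, limma, adjusted p = 1.52e-05), and by 0.61 to 0.69 with 1 library left out.

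*Id2* (chr12:25143798-25147282, minus strand) had 162 and 177 in the controls and 114 and 131 in KO cells. Both KO libraries were below both controls, and the gap between the groups was wider than the gap within either. The log2 fold change was -0.46 (SE 0.15, limma, adjusted p = 0.0478), close to the threshold. It was not called without control library 1 (adjusted p = 0.101), control library 2 (0.232) or KO library 1 (0.207), and DESeq2 gave an adjusted p of 0.276.

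*Id1* (chr2:152566218-152579544, plus strand) had few reads, with 38.5 and 44.9 normalized counts in the controls and 16.8 and 12 in KO cells. These are 43, 44, 17 and 11 reads in the same order. Its log2 fold change of -1.49 (SE 0.36, limma, adjusted p = 0.00893) was the one farthest from 0 among the 9 genes and had the second-widest error. The call was lost without control library 2 (adjusted p = 0.0924) and in DESeq2 (adjusted p = 0.0618). *Id3* (chr4:135870808-135873066, plus strand) also had few reads and stood at 31.3 and 24.5 in the controls and 17.8 and 17.5 in KO cells. With 35, 24, 18 and 16 reads behind these values, its log2 fold change of -0.62 had an SE of 0.37 and was not called (limma, adjusted p = 0.276), so a difference of the size seen for *Id4* was not detectable at this depth.

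*Zeb1* and *Zeb2* moved in opposite directions. *Zeb1* (chr18:5591851-5775467, plus strand) had 702 and 712 in the controls and 462 and 514 in KO cells, with the KO libraries farther apart than the controls but both far below them. It fell by 0.54 on the log2 scale (SE 0.09, limma, adjusted p = 0.000453), from a mean of 707 ± 7.06 to 488 ± 36.7 (SD, n = 2 each), and by 0.46 to 0.61 with 1 library left out. *Zeb2* (chr2:44873644-45007464, minus strand) had 2975 and 3047 in the controls and 4139 and 4031 in KO cells. Its libraries agreed closely within each genotype. The mean rose from 3011 ± 50.9 to 4085 ± 76.5 (SD, n = 2 each), or by 0.44 on the log2 scale (SE 0.05, limma, adjusted p = 1.47e-05), with 0.42 to 0.46 when 1 library was left out.

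Lowly counted antisense genes overlap exons of both Zeb genes. *Zeb1os1*, on the strand opposite *Zeb1*, had 34.0 and 28.6 in the controls and 18.7 and 8.74 in KO cells (log2 fold change -1.21, limma, adjusted p = 0.0611), and *Zeb2os*, opposite *Zeb2*, had 25.1 and 14.3 against 23.7 and 42.6 (log2 fold change 0.72, limma, adjusted p = 0.248). The library kit marks strand, but the strand setting of the counting is not given in the sources used here, so reads of these pairs may have been exchanged. Their counts are small beside those of *Zeb1* and *Zeb2*.

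**Figure D2:**
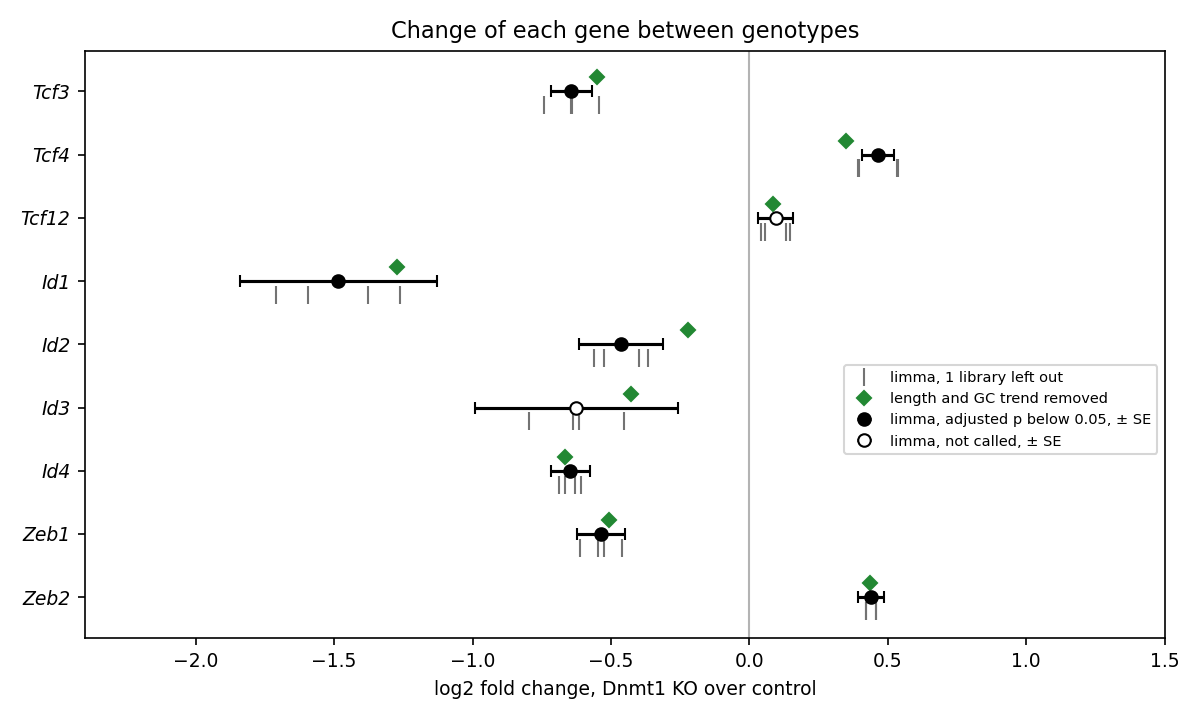
Log2 fold change of the 9 genes, KO over control, from limma with its SE (filled circles for an adjusted p below 0.05, open circles for genes not called), with the 4 values that leave out 1 library (ticks) and the value with the trend over length and GC removed (diamonds). All values of *Tcf3*, the 4 Id genes and *Zeb1* lie below 0 and all those of *Tcf4* and *Zeb2* above it, and *Id1* and *Id3* carry the widest errors.

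Levels of different genes were set against each other per kilobase (kb) of the transcript with the longest coding sequence. In the controls *Zeb2* was the most abundant at a mean of 564 normalized counts per kb, followed by *Tcf4* (347), *Tcf3* (320), *Id4* (286), *Tcf12* (222), *Id2* (177), *Zeb1* (122), *Id1* (35.9) and *Id3* (21.8). *Tcf4* and *Tcf3* overlapped between the control libraries, so their order was not resolved. In KO cells *Zeb2* (766 per kb) and *Tcf4* (478) were still first, but *Tcf3* (204) came after *Tcf12* (237). *Id1* (12.4) and *Id3* (13.8) overlapped at the low end.

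The 3 E protein genes together gave 920 and 858 normalized counts per kb in the controls and 901 and 938 in KO cells. Per kb, their sum thus overlapped between genotypes while its make-up differed. The overlap depends on the transcript lengths used, 9036 bases for *Tcf4* and 4378 for *Tcf3*. In normalized counts not divided by length, *Tcf4* rose (means 3133 to 4323) by more than *Tcf3* fell (1401 to 894). *Tcf3* made up 37.2% and 34.7% of the E protein sum in the controls and 22.6% and 21.8% in KO cells. *Tcf4* made up 39.5% and 38.5% in the controls and 50.4% and 53.6% in KO cells, and the share of *Tcf12* overlapped. The summed Id genes were at 509 and 532 per kb in the controls and 326 and 349 in KO cells. *Id4* held 53.9% to 55.5% of the Id sum in all 4 libraries. The summed Zeb genes were at 679 and 694 per kb in the controls and 855 and 844 in KO cells, with *Zeb1* making up 17.8% and 17.7% of the sum in the controls and 9.30% and 10.5% in KO cells.

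**Figure D3:**
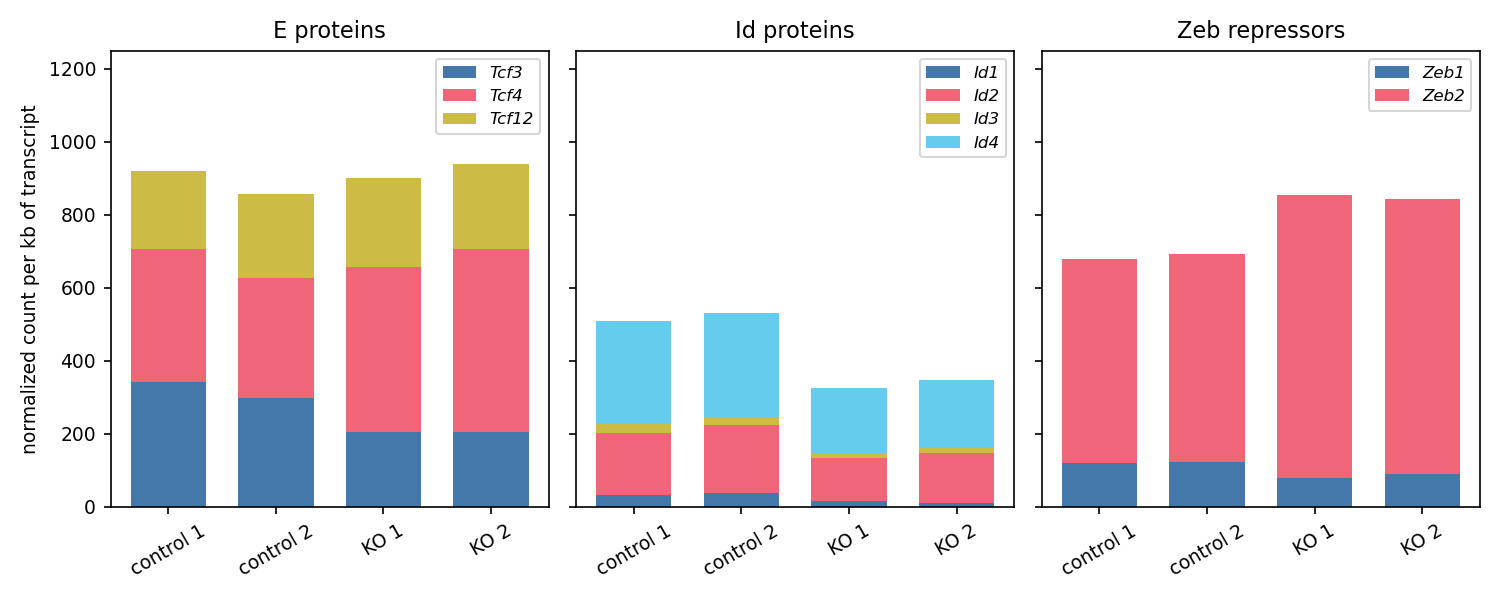
Stacked normalized counts per kb of transcript for each family in each library (linear axis from 0, the same for the 3 panels). The E protein bars have like heights in the 4 libraries with less *Tcf3* and more *Tcf4* in KO cells, the Id bars are lower in both KO libraries and the Zeb bars are higher.

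Ratios within a library do not depend on the scaling between libraries, but they were not corrected for the length trend given below. The ratio of the summed Id genes to the summed E protein genes, both per kb, came to 0.554 and 0.620 in the controls and 0.361 and 0.372 in KO cells, a log2 difference of -0.68. Id over Zeb was 0.751 and 0.767 in the controls and 0.381 and 0.413 in KO cells, a log2 difference of -0.94. *Zeb2* over *Zeb1* was 4.61 and 4.66 in the controls and 9.75 and 8.53 in KO cells, a log2 difference of 0.98. In each of these the genotypes were apart by more than their libraries.

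*Tcf3* over *Tcf12* was 1.60 and 1.29 in the controls and 0.840 and 0.885 in KO cells (log2 difference -0.74), so *Tcf3* was above *Tcf12* per kb in both controls and below it in both KO libraries. *Tcf4* over *Tcf12* was 1.70 and 1.43 against 1.87 and 2.18 (log2 difference 0.37). Smaller differences were found for Zeb over E proteins (0.26) and *Id4* over *Id2* (-0.18), and *Id1* over *Id3* (-0.90) rests on few reads. *Id4* and *Id2* have transcripts of unlike length. With the trend over length and GC content removed, their log2 fold changes were -0.67 and -0.22. None of the 8 ratios overlapped between the genotypes, but with 2 libraries against 2 the exact two-sided permutation test cannot give less than p = 0.333, which it gave for all 8 before any adjustment.

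Transcript length moved with genotype. Over 14285 tested genes with an annotated length, each doubling of the length went with a log2 ratio of a KO to a control library that was higher by 0.0537 to 0.0560, against 0.00172 between the controls and 0.000639 between the KO libraries. The transcripts used ran from 958 bases for *Id2*, 1160 for *Id1* and 1278 for *Id3* through 3995 for *Id4*, 4378 for *Tcf3*, 5335 for *Zeb2*, 5801 for *Zeb1* and 6313 for *Tcf12* to 9036 for *Tcf4*. Of the 3 shortest, *Id2* and *Id1* fell and *Id3* was not called. The longest, *Tcf4*, rose, and the next longest, *Tcf12*, was not called. *Zeb1* fell and *Zeb2*, with a shorter transcript, rose. After a trend over length and GC content was removed, the log2 fold change of *Id2* became -0.22 and was not called (limma, adjusted p = 0.347). *Tcf4* became 0.35 (limma, adjusted p = 0.00081) and *Id1* -1.27 (limma, adjusted p = 0.0213). *Tcf3* (-0.55), *Id4* (-0.67), *Zeb1* (-0.51) and *Zeb2* (0.44) were called as before. That fit called 18.1% of genes, 10.4% higher and 7.71% lower.

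Markers of other cell types moved with genotype too. Beside the counts of markers that rose or fell, 8.3% of all genes tested rose and 8.99% fell. Over 14 SST interneuron markers the summed normalized count was 23695 and 23993 in the controls and 36791 and 37176 in KO cells, and 13 of the 14 rose. Radial glia markers, which belong to the progenitors in which *Id4* and *Tcf3* are also expressed, summed to 11940 and 11895 in the controls and 7122 and 7336 in KO cells, and 8 of 10 fell while 1, *Sox2*, rose. All 10 cell cycle markers fell, with sums of 6320 and 6224 against 4347 and 4453.

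Vascular markers, a list of endothelial and pericyte genes with 3 fibroblast genes (*Col1a1*, *Col3a1* and *Lum*), summed to 835 and 894 in the controls and 367 and 384 in KO cells, and all 11 tested fell. Erythroid markers summed to 2610 and 2433 against 587 and 592, and all 8 tested fell. The microglia list summed to 82.3 and 107 in the controls and 33.5 and 43.7 in KO cells, with 1 of 3 tested genes lower. Oligodendrocyte precursor markers summed to 213 and 183 against 146 and 119 with none of 4 called, and excitatory lineage markers to 6274 and 6354 against 6293 and 6042, with 8 of 10 lower and 1, *Bcl11b*, which interneurons also express, higher. Without *Bcl11b* the other 9 excitatory lineage markers summed to 2924 and 3037 in the controls and 1697 and 1529 in KO cells, a ratio of 0.541. No marker list had a gene at 0 in all libraries. The KO to control ratio of these sums was 0.607 for radial glia, 0.434 for vascular cells and 1.55 for SST interneurons, next to 0.638 for *Tcf3*, 0.639 for *Id4*, 0.69 for *Zeb1*, 0.345 for *Id1*, 1.38 for *Tcf4* and 1.36 for *Zeb2*. The part of these cell types in the results for the 9 genes was not tested.

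**Figure D4:**
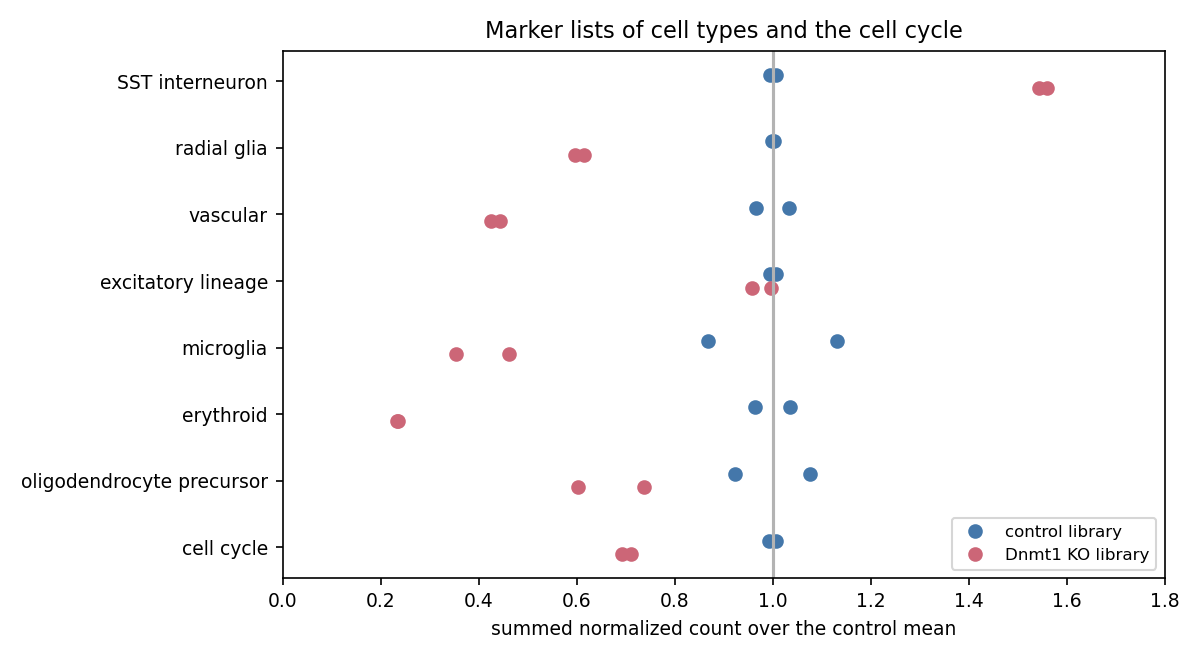
Summed normalized counts of 8 marker lists in each library, divided by the mean of the 2 controls (linear axis from 0, control at 1). Both KO libraries lie above the controls for SST interneuron markers and below them for radial glia, vascular, microglia, erythroid, oligodendrocyte precursor and cell cycle markers, while the excitatory lineage sums, most of which *Bcl11b* makes up, overlap.

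The genes that work with these families were read from 5 lists with 98 genes in all, of which 66 were tested, 6 rose and 17 fell, where 8.3% of all genes tested rose and 8.99% fell. The bHLH partners of E proteins were 30 genes, 14 of them tested, of which none rose and 8 fell, with a median log2 fold change of -1.02. *Neurog2*, a proneural factor of cortical progenitors, was at 421 and 420 in the controls and 161 and 157 in KO cells and fell by 1.40 on the log2 scale (limma, adjusted p = 7.16e-07). *Neurod6*, made in young excitatory neurons, went from 537 and 574 to 285 and 240 (log2 fold change -1.08, limma, adjusted p = 5.63e-06). *Nhlh2* went from 136 and 151 to 53.3 and 79.8 (-1.12, limma, adjusted p = 0.00148) and *Bhlhe22* from 116 and 148 to 63.1 and 71.0 (-0.96, limma, adjusted p = 0.0028, lost without control library 2 at 0.0634). Both KO libraries were below both controls for these 4 genes and for all 14 tested, and 57.4% of all genes tested had groups that did not overlap. *Neurod2* (-0.78, limma, adjusted p = 0.000253) and *Neurod6* are also among the excitatory lineage markers, and *Olig1* and *Olig2* among those of oligodendrocyte precursors. With each library left out in turn, 5 of the 8 calls held (*Neurog2*, *Neurod2*, *Neurod6*, *Olig3* and *Nhlh2*).

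E protein cofactors were 13 genes, all tested, of which 3 rose and 1 fell, with a median log2 fold change of 0.024. Among all genes tested 8.3% rose and 8.99% fell. *Cbfa2t3*, a corepressor of the ETO family that binds E proteins, went from 1198 and 1128 in the controls to 1814 and 1694 in KO cells and rose by 0.59 on the log2 scale (limma, adjusted p = 1.47e-05). The acetyltransferase genes *Crebbp* (2934 and 2995 against 3449 and 3619, log2 fold change 0.25, limma, adjusted p = 0.0025) and *Ep300* (1432 and 1549 against 1728 and 1852, 0.26, limma, adjusted p = 0.00937) rose too. All 3 were higher in both KO libraries, and the call for *Ep300* was lost without control library 1 (0.0775) or KO library 2 (0.0752). *Lmo1*, a LIM-only adaptor, went from 125 and 114 to 70.0 and 77.6 (-0.69, limma, adjusted p = 0.016) and was not called in DESeq2 (adjusted p = 0.124), after the length and GC trend was removed (0.0762) or without control library 1 (0.118) or 2 (0.0616).

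Of 28 genes of the BMP pathway, 20 were tested, 2 rose and 1 fell, with a median log2 fold change of -0.04, so the calls were about as frequent as the 17.3% over all genes tested. The receptor genes *Bmpr2* (1371 and 1352 in the controls, 1766 and 1694 in KO cells, log2 fold change 0.34, limma, adjusted p = 0.000933) and *Acvr2a* (500 and 510 against 631 and 606, 0.29, limma, adjusted p = 0.0238) were higher in both KO libraries. Neither was called after the length and GC trend was removed (0.0967 and 0.0683), and *Acvr2a* was not called in DESeq2 (0.129) or without control library 1 (0.0868), control library 2 (0.0633) or KO library 1 (0.122). *Acvrl1*, the endothelial receptor of the family and named after its values were seen, had 27.7 and 24.5 in the controls and 4.93 and 10.9 in KO cells (-1.69, limma, adjusted p = 0.025). It was not called in DESeq2 (0.135) or without control library 1 (0.133), control library 2 (0.098) or KO library 1 (0.102). The ligand genes *Bmp2*, *Bmp4*, *Bmp5*, *Bmp6*, *Gdf5* and *Gdf6* were below the level for testing, and *Smad1*, *Smad4* and *Smad5*, which carry the signal to *Id* genes, were not called.

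Of 17 Zeb cofactor genes, all tested, 1 rose and 6 fell, with a median log2 fold change of -0.13. The shares among all genes tested were 8.3% and 8.99%. *Chd3*, an ATPase of the NuRD complex, went from 7426 and 7624 to 8786 and 9025 (0.24, limma, adjusted p = 0.000646), and *Ctbp2*, the corepressor that Zeb proteins bind, from 495 and 515 to 396 and 351 (-0.44, limma, adjusted p = 0.00527). These were the calls that held with each library left out. Next among the fallen genes, by log2 fold change, were *Hdac1* (445 and 467 against 338 and 368, log2 fold change -0.37, limma, adjusted p = 0.0157), *Mbd3* (1317 and 1342 against 930 and 1165, -0.35, limma, adjusted p = 0.0106) and *Rbbp7* (677 and 732 against 537 and 578, -0.34, limma, adjusted p = 0.0111), further NuRD subunits. Each lost its call without control library 2 (0.0952, 0.0655 and 0.0921) or KO library 1 (0.0905, 0.15 and 0.0633). *Hdac1* and *Mbd3* were also not called after the length and GC trend was removed (limma, adjusted p = 0.0653 and 0.0551), nor *Hdac1* and *Rbbp7* in DESeq2 (0.103 and 0.0578), and 2 of the 6 lower calls held without that trend. Among 10 genes known to be repressed by Zeb proteins, 8 were below the level for testing, including the epithelial genes *Cdh1* and *Epcam*. *Unc5b*, a guidance receptor gene, had 121 and 102 in the controls and 59.2 and 78.7 in KO cells (-0.69, limma, adjusted p = 0.0286). Its call was lost in DESeq2 (0.167) and without control library 1 (0.199), control library 2 (0.067) or KO library 1 (0.154). *Nkx2-1*, the regional factor of the medial ganglionic eminence, had 369 and 346 against 353 and 346 (-0.03, limma, adjusted p = 0.877).

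**Figure D5:**
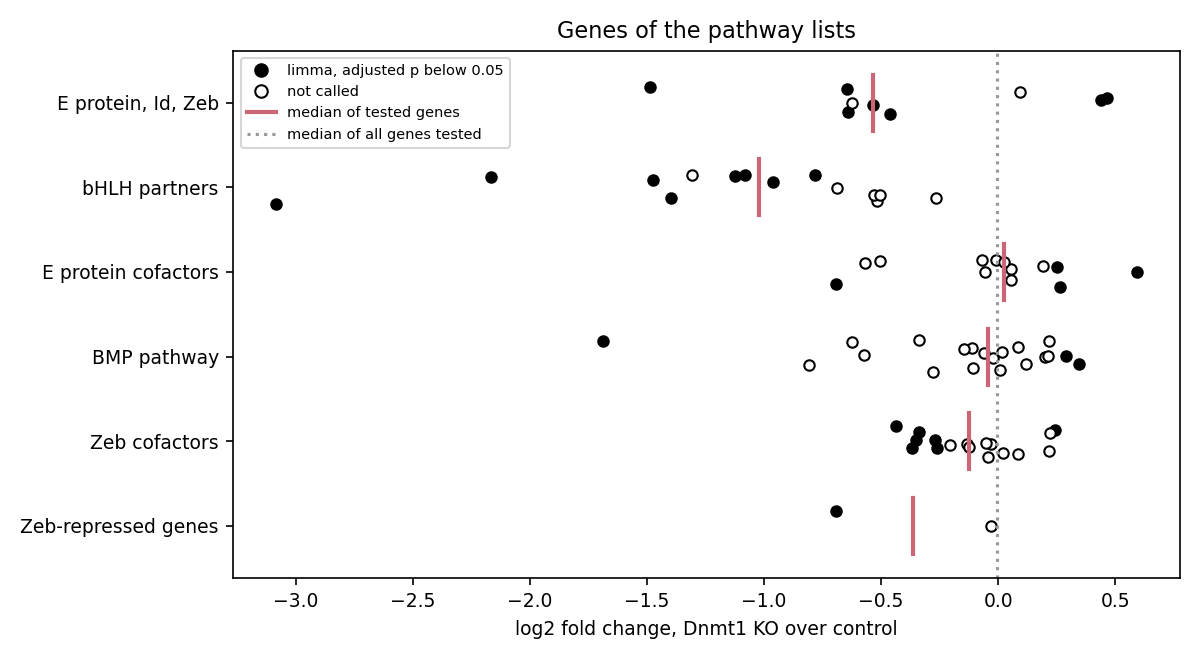
Log2 fold change, KO over control, of the tested genes of the 9-gene set and of the 5 lists (filled circles for a limma adjusted p below 0.05, bars for each list's median, dotted line for the median of all genes tested; vertical scatter has no meaning). All 14 tested bHLH partners lie below 0, and the other lists lie on both sides of it, apart from the 2 tested genes repressed by Zeb proteins.

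The most abundant gene of each family was set against the 66 tested genes of the 5 lists by the Euclidean distance between log2 values centred on each gene's mean over the 4 libraries. Nearest to *Tcf4* were *Bmpr2* (distance 0.207), *Cbfa2t3* (0.219) and *Crebbp* (0.249). *Zeb2* lay nearest to *Bmpr2* (0.104), *Acvr2a* (0.149) and *Cbfa2t3* (0.180), and *Id4* to *Lmo1* (0.135), *Lmo2* (0.144) and *Tcf15* (0.246). With 4 libraries this ranks genes mainly by their difference between genotypes.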

How the data were processed

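Total RNA of tdTomato-positive cells was sequenced by the authors with a stranded total RNA kit (paired-end). Per the labels, reads were trimmed with Trim Galore, aligned to GRCm39 with STAR, quantified with Salmon and normalized with DESeq2. The deposited values are normalized counts, a signal divided by a size factor for each library. Whole reads were recovered from them: 100% of the 89965 values above 0 were within 0.0001 of a whole read. Genes with a mean of at least 10 were tested with limma 3.58.1 (variance trend) on log2(normalized count + 1), in R 4.3.3, with Benjamini-Hochberg adjustment over all 14323 genes. Recovered reads were also tested with DESeq2 1.42.0 and edgeR 4.0.16. The limma script was tested on simulated data. Lengths are from GENCODE. Genes of the lists were named if called with a mean of at least 50, up to 4 with the largest changes in each direction per list. The members and lists were chosen with earlier results of these data known. Other settings were another pseudocount, filter or scaling, a trend over length and GC content, a replicate block and leaving out each library. Depth was 6970247 to 8376711 reads per library.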

Additional observations from a re-analysis of the deposited data

How the results depend on the processing

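The 16 other settings turned no direction of a call, of any of the 9 genes or of a ratio. This does not cover named list genes that were not called, such as *Nkx2-1*, whose libraries overlapped between genotypes. Without the variance trend, limma called no gene: 0 of all genes, 0 of the 9 genes and 0 of the list genes in either direction, with a smallest adjusted p of 0.0592 and 3339 genes at an unadjusted p under 0.05, while edgeR called 2528 genes and DESeq2 1317. DESeq2 called 634 genes higher and 683 lower, 3 of the 9 genes lower, and 15 list genes, 10 of them lower. With 1 library left out, the calls numbered 1525 to 2205 in all (787 to 959 higher, 738 to 1246 lower), 5 to 7 of the 9 genes (2 to 2 higher, 3 to 5 lower) and 14 to 20 list genes (4 to 6 higher, 8 to 15 lower). The counts fell most without control library 2 (1525, 787 and 738 over all genes, 3 of the 9 genes lower, 14 list genes with 8 lower), and 1648 genes (787 lower) were called without control library 1. *Id2* was also not called with a pseudocount of 10 (limma, adjusted p = 0.0501), at a mean of at least 1 (0.0593), after quantile normalization (0.0911) or with limma-voom (0.0533). Removing the length and GC trend called 1485 genes higher and 1102 lower, against 1189 and 1287, and moved the median of all genes tested from -0.0033 to 0.042. Libraries of the same number did not deviate together (correlation -0.0847 over 14323 genes). With 2 libraries per genotype this cannot decide whether they share a day or litter, which the labels do not say. The main fit did not pair them. With a replicate block 2957 genes were called, 1402 of them higher, and 7 of the 9 genes. The 2 pools per genotype limit the precision, and genes with under 50 reads per library, *Id1* and *Id3*, have the widest errors.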

Other observations

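Inside *Tcf12*, on its strand and outside its exons, lie 7 single annotated genes of open type (*Gm38057*, *Gm38111*, *Gm37879*, *Gm37663*, *Gm37023*, *A430027C01Rik* and *Gm37137*), chosen after their values were seen. Their normalized counts summed to 94.0 and 93.9 in the controls and 180 and 204 in KO cells, 2.04 times as high on the mean, while *Tcf12* itself had 1351 and 1454 against 1535 and 1459. The mean was higher in KO cells for all 7, and the genotypes did not overlap for 6 of them, as for 57.4% of all genes tested. Of the 6 that were tested, *Gm37879* was called (11.6 and 5.10 in the controls, 18.7 and 38.2 in KO cells, log2 fold change 1.66, limma, adjusted p = 0.0352). Whether these reads come from unspliced *Tcf12* RNA was not tested.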
